A study of Mus musculus with 66 samples.

Results

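The 34 genes described here encode the machinery that copies DNA and the enzymes that make its building blocks. They were taken by name from an mRNA-Seq table of 22489 genes, and all 34 were found in it. Expression was measured in C2C12 cells, a mouse myoblast line that leaves the cell cycle and forms muscle cells when serum is withdrawn. The table has 20 libraries, 1 in each state for each of 10 lines. In the growth state cells were kept in 20% fetal bovine serum and harvested before confluence. In the differentiated state confluent cells were moved to 2% horse serum and harvested after 48 h. WT cells carry no tagged histone. The other 9 lines carry a histone H3 with GFP at its N-terminus, brought in by a transposon and placed under a promoter that doxycycline switches on. By protein sequence, H3.1, H3.2 and H3t are of the H3.1/H3.2 type. H3.3 itself and 5 mouse variants (H3mm7, H3mm11, H3mm12, H3mm13 and H3mm16) are of the H3.3 type. The H3t line was read from the columns headed H3mmT. Each tagged protein is represented by a single line, so a property of a line and an effect of its H3 cannot be told apart.

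Replication begins when the origin recognition complex (ORC), Cdc6 and Cdt1 load the ring of MCM2-7 subunits on DNA, a step called licensing. Mcm10, Cdc45 and the GINS complex turn the loaded ring into an active helicase. Primase and DNA polymerase alpha start the new strands, the clamp PCNA is placed by replication factor C (RFC), and polymerases delta and epsilon extend them. Fen1 and Lig1 finish the lagging strand, RPA covers the exposed single strands, and ribonucleotide reductase, thymidine kinase, thymidylate synthase and dUTPase keep up the deoxynucleotide supply. Many of these genes are known targets of E2F factors, which are held in check in cells that have left the cell cycle.

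Because E2F factors bind short sequences near the start of such genes, the promoters were searched on both strands for the letters TTTCGCGC or TTTGGCGC. Promoter windows of RefSeq genes (GRCm38.p6, 250 bases before to 50 after the start) were found for 29 members, and Gins1, Gins2, Mcm4, Pole and Prim2 were not matched. At least 1 of these motifs stood in 10 of 33 member windows, against 0.813% of 32851 windows of all genes. The genes were Cdt1, Lig1, Mcm3, Mcm5, Mcm6, Mcm7, Orc1, Pola1, Pole2 and Rfc3. The licensing genes among them are printed here because their levels are given further on, with the matched letters in capitals and each sequence on the strand of its gene.
Mcm3, chr1:20820263-20820292: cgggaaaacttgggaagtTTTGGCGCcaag
Mcm5, chr8:75109345-75109374: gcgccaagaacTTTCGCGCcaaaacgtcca
Mcm6, chr1:128359797-128359826: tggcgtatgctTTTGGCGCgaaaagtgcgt
Mcm6, chr1:128359734-128359763: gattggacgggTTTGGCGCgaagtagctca
Mcm7, chr5:138171849-138171878: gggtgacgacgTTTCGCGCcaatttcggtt
Orc1, chr4:108579416-108579445: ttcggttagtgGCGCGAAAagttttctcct
Cdt1, chr8:122568035-122568064: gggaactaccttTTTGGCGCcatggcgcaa
The capitals begin 153 bases before the annotated start in Mcm5, 110 and 47 bases before it in Mcm6, and 27 bases before it in Orc1. In Cdt1, Mcm3 and Mcm7 they begin 32, 38 and 16 bases after it, within the first transcribed bases. In Mcm5 and at the farther Mcm6 site the other motif overlaps the printed letters on the opposite strand. The CCAAT box (CCAAT on either strand) was in 18 of the 33 windows, against 37.4% of all windows. The cell cycle homology region (TTTGAA on either strand) was in 3 of 33, against 17.9%. These are matches of letters, and binding was not measured here.

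All values below are FPKM, which are scaled per kilobase of transcript, so levels of different genes can be set side by side. A change is the difference of log2(FPKM + 1), differentiated minus growth. It understates the change of genes near 0. Genes with a mean of at least 1 FPKM over the 20 libraries were tested with limma, and a call needed an adjusted p (Benjamini-Hochberg) under 0.05 together with a change of at least 1. All 34 members passed the filter. Orc1, Cdc6, Mcm10 and Pole had a median under 1 FPKM in the differentiated state and passed through their growth values. No member was listed at 0 in any library. The WT libraries had the lowest summed FPKM, 409319 and 465247 against 583613 to 894105 in the 18 others. Their median FPKM over genes above 0 was the highest, 8.36 and 7.94 against 4.61 to 7.31. WT values were therefore not lower throughout. Library depth is unknown.

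The muscle markers separated the states. The 7 differentiated muscle markers (Myog, Myh3, Ckm, Acta1, Mylpf, Tnnc2 and Tmem8c) summed to 6.39 to 188 FPKM in growth and 4280 to 20239 FPKM after differentiation. The growth sums differed by H3 type. They were 6.39 to 32.6 FPKM in the H3.1/H3.2-type lines, 25.0 FPKM in WT and 65.7 to 188 FPKM in the H3.3-type lines. All 5 myoblast markers (Myod1, Myf5, Des, Cdh15 and Chrna1) were present, with sums of 306 to 791 FPKM in growth and 682 to 1931 FPKM after differentiation. Endothelial, leukocyte and adipocyte markers summed to at most 7.66, 3.92 and 0.280 FPKM. Of these 9 genes, Pecam1, Kdr, Ptprc, Csf1r, Adipoq, Plin1 and Cidec stayed under 1 FPKM in every library, while Cdh5 reached 7.53 FPKM and Cd68 reached 3.90 FPKM. Cdh5, an endothelial cadherin, moved with the replication genes. It was at 0.134 to 7.53 FPKM in growth and 0.00798 to 1.90 FPKM after differentiation, fell in 10 of 10 lines and was called lower by limma (-1.02, adjusted p = 0.00280). The other endothelial markers, Pecam1 and Kdr, were under 1 FPKM throughout, and the part of Cdh5 in the results was not tested.

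All 34 genes fell with differentiation. Each was called lower by limma, against 8.41% of the 10954 genes tested, and each fell in 10 of 10 lines. No member was called higher, against 8.87% of genes tested. For all 34, every growth library was above every differentiated library, which held for 8.74% of genes tested. The median change of the members was -2.65, against 0.04 for all genes tested. In these bulk libraries, fewer cells that replicate and less of these RNAs in each cell cannot be told apart. The order of levels also moved. In growth, Rrm2 had the highest median (415 FPKM), 4 members had medians of at least 100 FPKM and Orc1 had the lowest (7.72 FPKM). After differentiation Pcna was highest (93.5 FPKM), 26 members were under 10 FPKM and Cdc6 was lowest (0.234 FPKM).

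**Figure D1:**
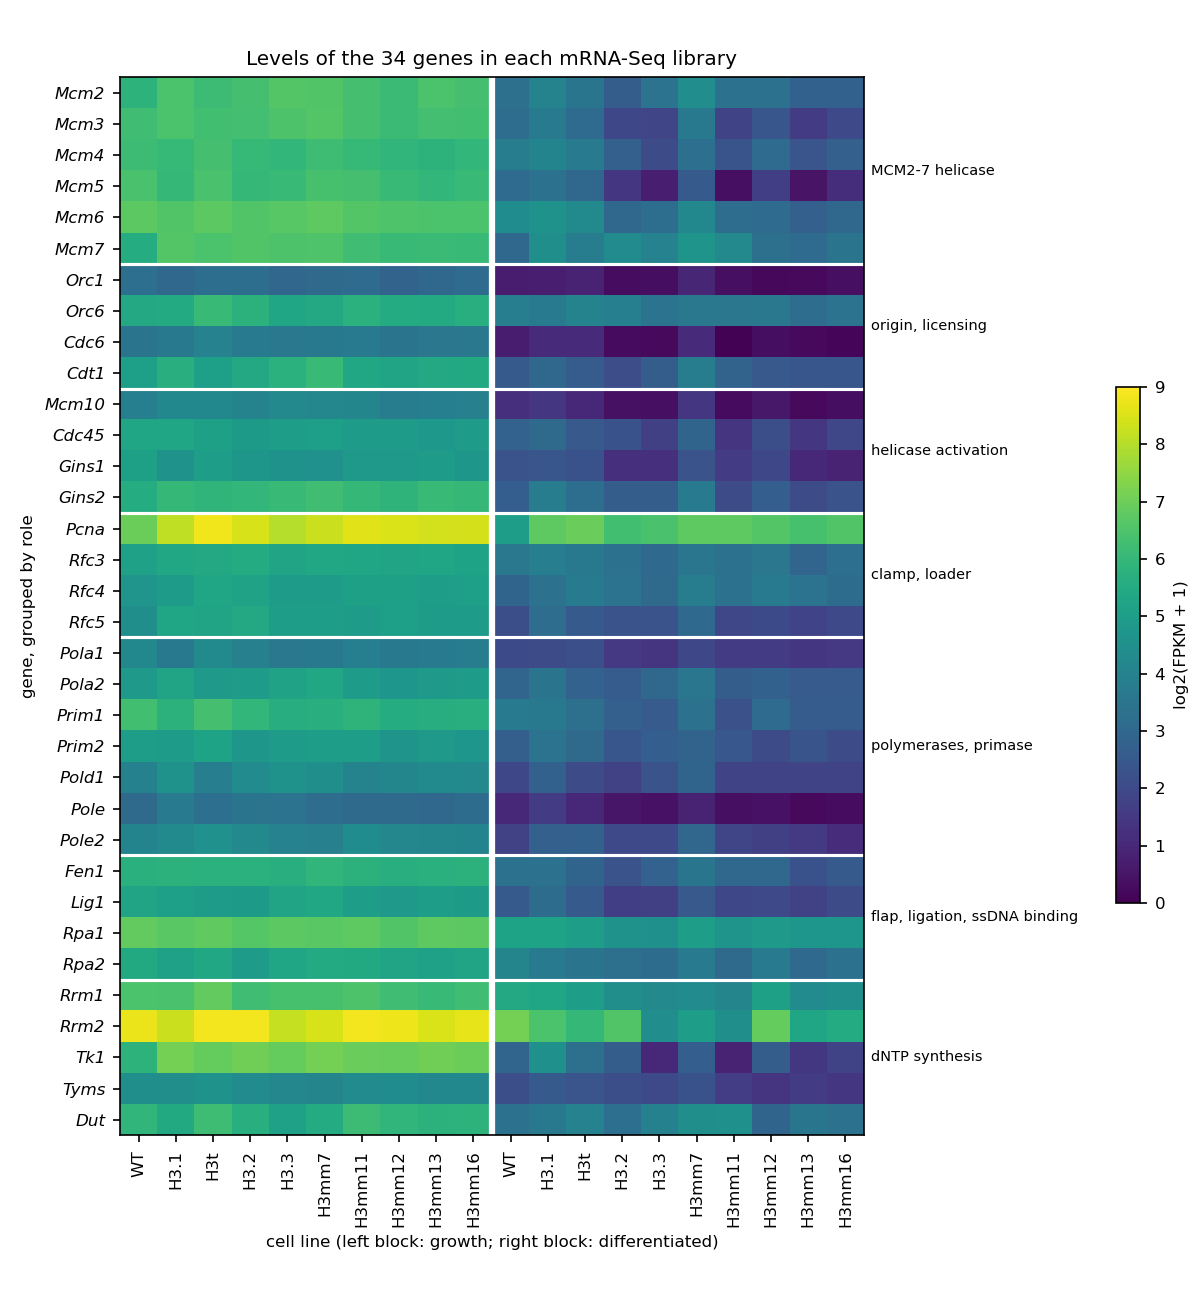
Colour gives log2(FPKM + 1) of each of the 34 genes (rows, grouped by role) in each of 20 libraries (columns, 10 lines in growth on the left and the same lines differentiated on the right). Every gene is darker on the right, Rrm2 and Pcna are the brightest rows in growth, and the rows of the right block differ more between lines.

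The genes of the MCM2-7 helicase had a median change of -3.01. Mcm5 (chr8:77633427-77652338, mm9) ranged from 62.0 FPKM in the H3mm13 line through a median of 67.5 to 85.1 FPKM in growth. After differentiation it ranged from 0.303 FPKM in the H3mm11 line through a median of 1.94 to 9.55 FPKM in the H3.1 line. The highest differentiated value was thus well under the lowest growth value. Mcm5 fell by 4.39 (SE 0.34, limma adjusted p = 6.53e-10), and Mcm3 fell by 3.81 (SE 0.24, limma adjusted p = 2.58e-11). The changes of Mcm2, Mcm4 and Mcm6 were -2.95, -3.01 and -3.02. Mcm7 (chr5:138605811-138613650, mm9) fell the least of the 6, by 2.42 (SE 0.20, limma adjusted p = 1.10e-09), and in each line 11.5 to 26.6% of its growth level was left.

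The 6 MCM subunits make up a single ring, and in growth their mRNAs were close to each other in level. The highest of them was 1.42 to 2.26 times the lowest within a line. Mcm6 was the highest in 9 of 10 lines. After differentiation this ratio was 2.42 to 59.7, with a median of 6.55 over the 10 lines. Mcm5 was then the lowest subunit in 9 of 10 lines, and Mcm7 the highest in 6 of 10, namely H3.2, H3.3, H3mm7, H3mm11, H3mm13 and H3mm16. In the differentiated H3mm11 line Mcm7 was at 18.1 FPKM, Mcm2 at 9.15 FPKM, Mcm6 at 8.31 FPKM, Mcm4 at 4.12 FPKM, Mcm3 at 2.55 FPKM and Mcm5 at 0.303 FPKM. In the differentiated H3.1 line the same genes were at 21.6, 15.5, 23.1, 15.8, 12.04 and 9.55 FPKM. The lines therefore differed far more in Mcm5 than in Mcm7. The Mcm7 to Mcm5 ratio was 0.545 to 1.51 in growth. After differentiation it was 0.937 in WT, 1.78 in H3t, 2.26 in H3.1, 4.07 in H3mm12 and 4.96 in H3mm7. It was 8.15 in H3mm16, 11.5 in H3.2, 21.3 in H3mm13, 21.9 in H3.3 and 59.7 in H3mm11. Mcm5 was under 1 FPKM in H3.3, H3mm11 and H3mm13, where a ratio is least certain.

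**Figure D2:**
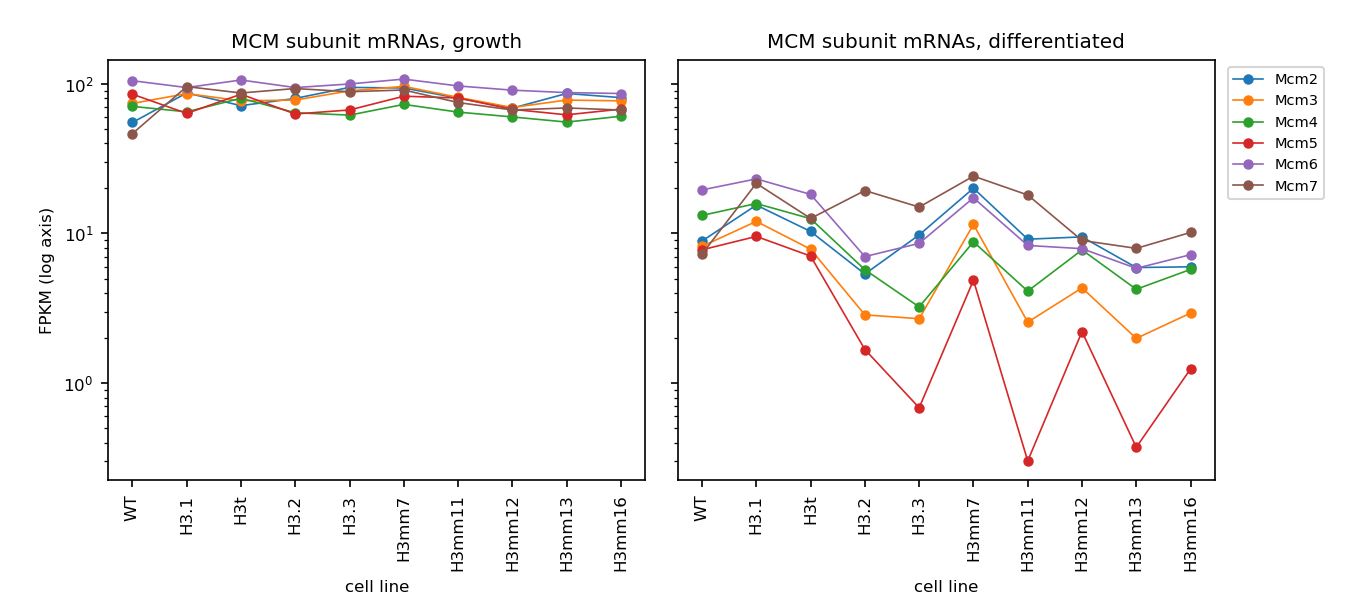
Points are FPKM on a log axis for the 6 MCM subunit genes in each of 10 lines, in growth on the left and after differentiation on the right. The subunits lie within a factor of 2.26 of each other in growth. After differentiation Mcm5 is the lowest in 9 of 10 lines and lies furthest below the rest in H3mm11, H3mm13 and H3.3.

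The 4 genes of origin recognition and licensing had a median change of -2.68. Cdc6, which works with ORC to load the MCM ring, was at 9.97 to 14.9 FPKM in growth with a median of 11.3. It was at 0.0492 to 1.14 FPKM with a median of 0.234 after differentiation, the lowest median of the set. Cdc6 fell by 3.13 (SE 0.14, limma adjusted p = 3.25e-13). Orc1 (chr4:108252028-108288633, mm9), the ORC subunit known to vary through the cell cycle, was at 6.36 to 8.71 FPKM in growth and 0.141 to 0.938 FPKM after differentiation. It fell by 2.60 (SE 0.11) and had the smallest adjusted p of the members (limma adjusted p = 2.08e-13). Cdt1 fell by 2.77, from a median of 42.1 to 5.01 FPKM. Orc6, another ORC subunit, kept the most of these 4. It fell by 1.97 (SE 0.11, limma adjusted p = 2.09e-12), and 18.5 to 32.0% of its growth level was left.

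The genes of helicase activation fell together, with changes from -3.33 to -2.81. Mcm10 went from a median of 16.04 FPKM to 0.412 FPKM and fell by 3.33 (SE 0.16, limma adjusted p = 7.22e-13). Gins2 and Gins1, subunits of GINS, had changes of -3.17 and -3.08. Cdc45, which joins MCM2-7 and GINS in the active helicase, went from a median of 30.8 FPKM to 3.60 FPKM and fell by 2.81. Of the 7 roles, this group had the lowest median change (-3.13), followed by the MCM2-7 genes.

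The clamp and its loader had the highest median change of the 7 roles (-1.85). Pcna, the sliding clamp, was at 124 FPKM in WT and 255 to 447 FPKM in the 9 GFP-H3 lines in growth, with a median of 339 over all 10. After differentiation it was at 32.4 FPKM in WT and 77.3 to 122 FPKM in the others. The states did not overlap among the GFP-H3 lines, but WT in growth was only slightly above the highest of them after differentiation. Pcna fell by 1.80 (SE 0.22, limma adjusted p = 4.69e-07), and 22.1 to 38.5% of its growth level was left. Rfc4 fell the least of the 34 genes, by 1.62 (SE 0.11, limma adjusted p = 4.65e-11), and Rfc3 fell by 1.89. Rfc5 fell further, by 2.71, from a median of 32.4 to 3.72 FPKM.

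Primase and polymerase genes had a median change of -2.13. Prim1, the catalytic primase subunit, went from 46.7 to 80.5 FPKM in growth to 3.74 to 11.8 FPKM after differentiation and fell by 2.83 (SE 0.17, limma adjusted p = 1.29e-11). Its partner Prim2 fell by 2.30. Pola1 and Pola2, the catalytic and accessory subunits of polymerase alpha, both fell by about the same amount (changes of -2.12 and -2.10). Pold1, the catalytic subunit of polymerase delta, fell by 2.13. Pole, that of polymerase epsilon, was at 7.32 to 12.1 FPKM in growth and 0.163 to 2.06 FPKM after differentiation and fell by 2.58 (SE 0.15, limma adjusted p = 6.58e-12). Pole2, its second subunit, fell by 2.13. In the H3mm7 line Pole2 was at 14.3 FPKM in growth and 6.85 FPKM after differentiation, so 47.8% was left, against 7.66 to 31.4% in the 9 other lines.

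Fen1, Lig1, Rpa1 and Rpa2 had a median change of -2.35. The nuclease Fen1 and the ligase Lig1 had changes of -2.84 and -2.86. Those of the RPA subunits Rpa1 and Rpa2 were -1.87 and -1.81. Rpa1 was at 94.3 to 113 FPKM in growth, and 20.5 to 35.0% of it was left.

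**Figure D3:**
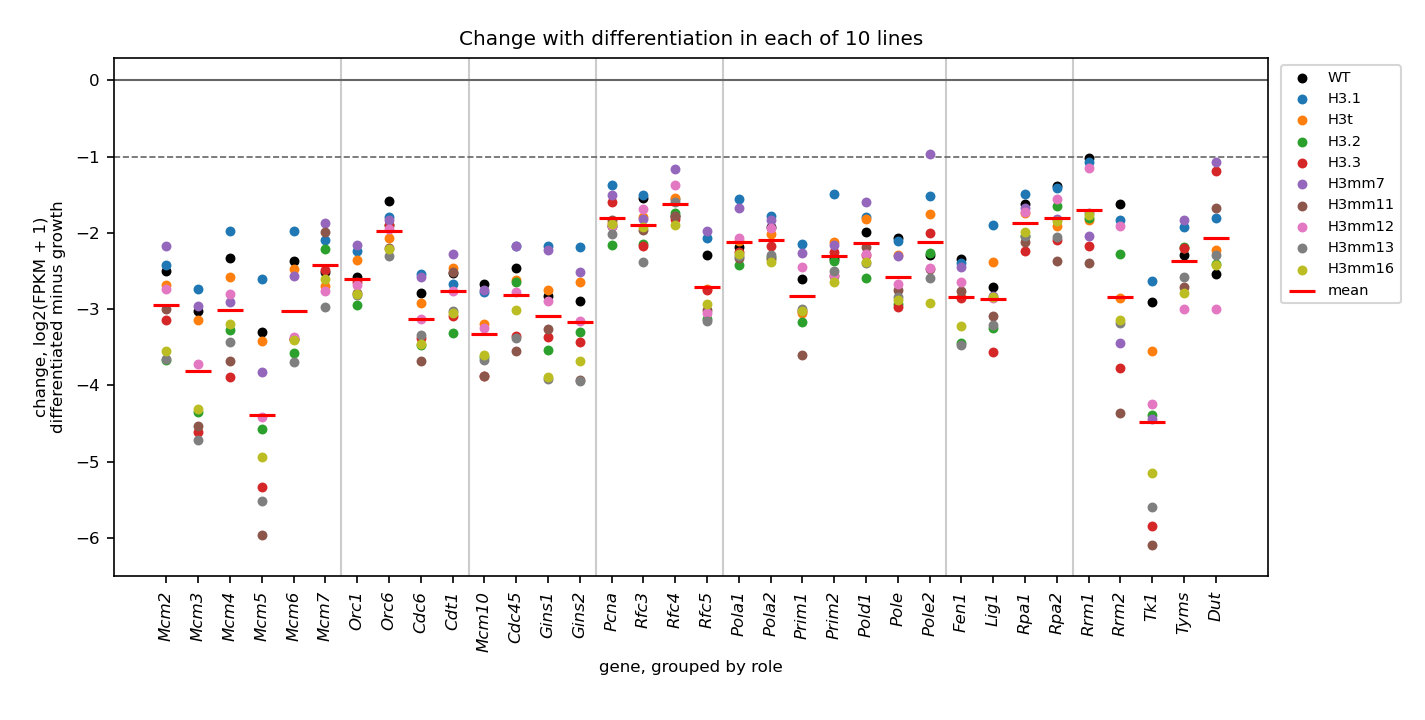
Points are the change in log2(FPKM + 1), differentiated minus growth, of each gene in each of 10 lines, and the red bar is the mean over lines (a dashed line marks -1). All points are under 0, and the spread between lines is widest for Tk1 and Mcm5 and narrow for Rfc4 and Orc6.

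Among the genes of deoxynucleotide synthesis, Tk1 (chr11:117676840-117687406, mm9), the cytosolic thymidine kinase of the salvage pathway, had the largest fall of the 34. In growth it was at 55.9 FPKM in WT and 116 to 139 FPKM in the 9 GFP-H3 lines. After differentiation it was at 6.57 FPKM in WT, 21.7 in H3.1, 9.03 in H3t, 5.36 in H3.2, 1.06 in H3.3, 5.41 in H3mm7, 0.818 in H3mm11, 5.28 in H3mm12, 1.75 in H3mm13 and 2.56 in H3mm16. All of these were below the lowest growth value, and H3.1 stood highest. Tk1 fell by 4.49 (SE 0.35, limma adjusted p = 5.79e-10). In each line 0.664 to 15.6% of its growth level was left.

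Rrm2 (chr12:25393106-25399011, mm9), the small subunit of ribonucleotide reductase, was at 293 to 461 FPKM in growth with a median of 415. After differentiation it was at 137 FPKM in WT, 115 in H3mm12, 94.2 in H3.2, 87.4 in H3.1, 62.2 in H3t, 45.4 in H3mm16, 38.2 in H3mm13, 31.0 in H3mm7, 21.5 in H3mm11 and 20.5 in H3.3. Rrm2 fell by 2.84 (SE 0.30, limma adjusted p = 4.89e-08). Rrm1, its large subunit, fell less, by 1.70 (SE 0.16, limma adjusted p = 1.16e-08). The lines that kept the most Rrm1 were WT (48.7%), H3.1 (47.2%) and H3mm12 (44.4%), and these also kept the most Rrm2 (32.4, 28.0 and 26.5%). The ratio of Rrm2 to Rrm1 was 3.52 to 6.07 in growth and 1.15 to 4.52 after differentiation, and it was lower after differentiation in every line.

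Dut (chr2:125072926-125084344, mm9), the dUTPase that keeps uracil out of DNA, ordered the lines in another way. It was highest after differentiation in H3mm11 (21.6 FPKM), H3mm7 (21.4 FPKM), H3t (14.9 FPKM) and H3.3 (14.5 FPKM) and lowest in H3mm12 (6.51 FPKM). In H3mm7, H3.3 and H3mm11 46.6, 42.3 and 30.3% of its growth level was left, against at most 27.0% in the 7 others. Those 3 lines had the lowest 3 values of Rrm2. Dut fell by 2.06 (SE 0.19, limma adjusted p = 4.60e-09). Tyms, which makes thymidylate, was the least abundant of the 5 in growth (at most 22.9 FPKM) and fell by 2.37 (SE 0.14, limma adjusted p = 5.36e-12).

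**Figure D4:**
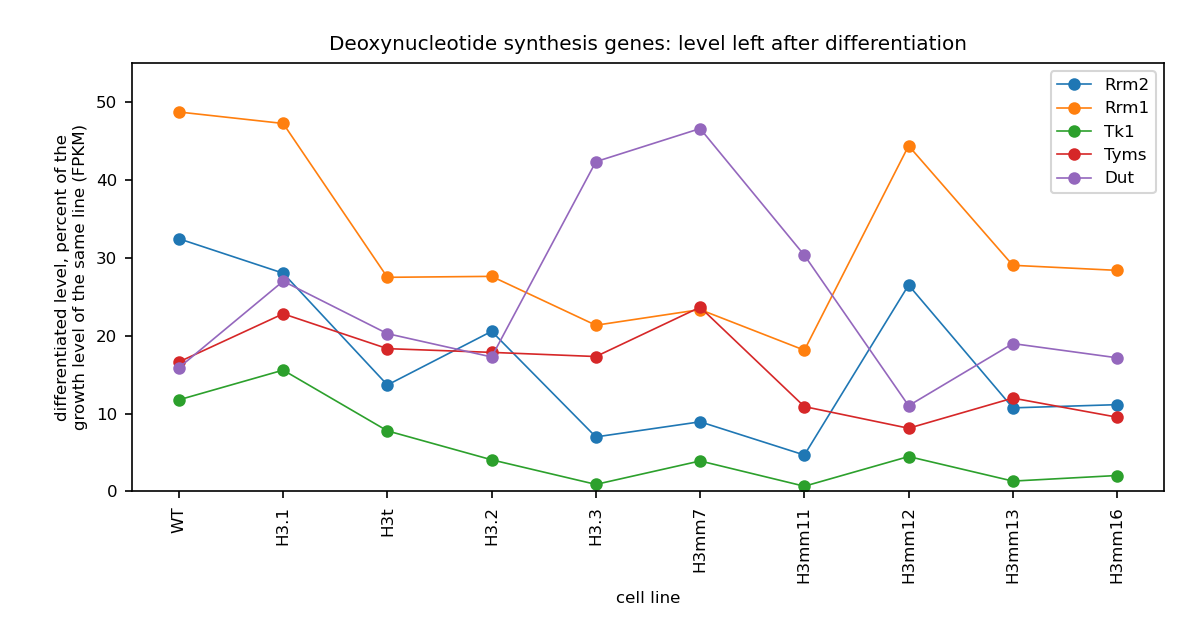
Points give the differentiated FPKM as a percentage of the growth FPKM of the same line for Rrm2, Rrm1, Tk1, Tyms and Dut in 10 lines. Rrm1 and Rrm2 are highest in WT, H3.1 and H3mm12, Dut is highest in H3.3 and H3mm7, and Tk1 is the lowest gene in every line.

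For 7 members, the change was compared with that of another subunit or isozyme of the same complex or step. The member fell more than its partner in 10 of 10 lines in all 7 pairs. The sign of each line's difference was flipped in all 1024 ways as an exact permutation test (two-sided). Each comparison had p = 0.00195, the smallest that this allows, and 0.00195 after adjustment over 7 pairs. The pairs were chosen with earlier results of these data known. These p-values therefore describe the chosen pairs and are no independent support, and other subunits were not used as partners. Tk1 and Tk2, the mitochondrial thymidine kinase, differed most, by -4.83 ± 1.17 (SD over lines, n = 10). Tk2 was at 4.99 to 6.19 FPKM in growth and 6.85 to 8.33 FPKM after differentiation, a change of 0.34 (limma adjusted p = 3.37e-05) that is under the size limit of a call. Tk1 was 9.03 to 26.4 times Tk2 in growth. After differentiation it was 0.0982 to 2.83 times Tk2 and below it in 8 of 10 lines.

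Rrm2 and Rrm2b, a small subunit that p53 is known to induce and that serves resting cells, differed by -3.68 ± 1.25 (SD, n = 10). Rrm2b was at 4.83 to 10.3 FPKM in growth and 6.48 to 21.7 FPKM after differentiation, with a change of 0.84 (limma adjusted p = 2.30e-04), again under the size limit. Rrm2 was 38.5 to 69.8 times Rrm2b in growth and 1.26 to 13.5 times after differentiation, so Rrm2 was still the higher of them in every line. Pold1 and Pold4, the smallest subunit of polymerase delta, differed by -2.41 ± 0.46. Orc1 and the ORC core subunit Orc2 differed by -2.01 ± 0.50, and Pole and its histone-fold subunit Pole3 by -1.69 ± 0.52. Rpa2 and the smallest RPA subunit Rpa3 differed by -1.34 ± 0.52, and Rfc4 and the large clamp loader subunit Rfc1 by -0.75 ± 0.20 (SD, n = 10 each). With a pseudocount of 10 FPKM the difference between Pole and Pole3 was -0.024 (adjusted p = 0.807 by the same exact test). Pole was under 10 FPKM in 18 of 20 libraries.

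**Figure D5:**
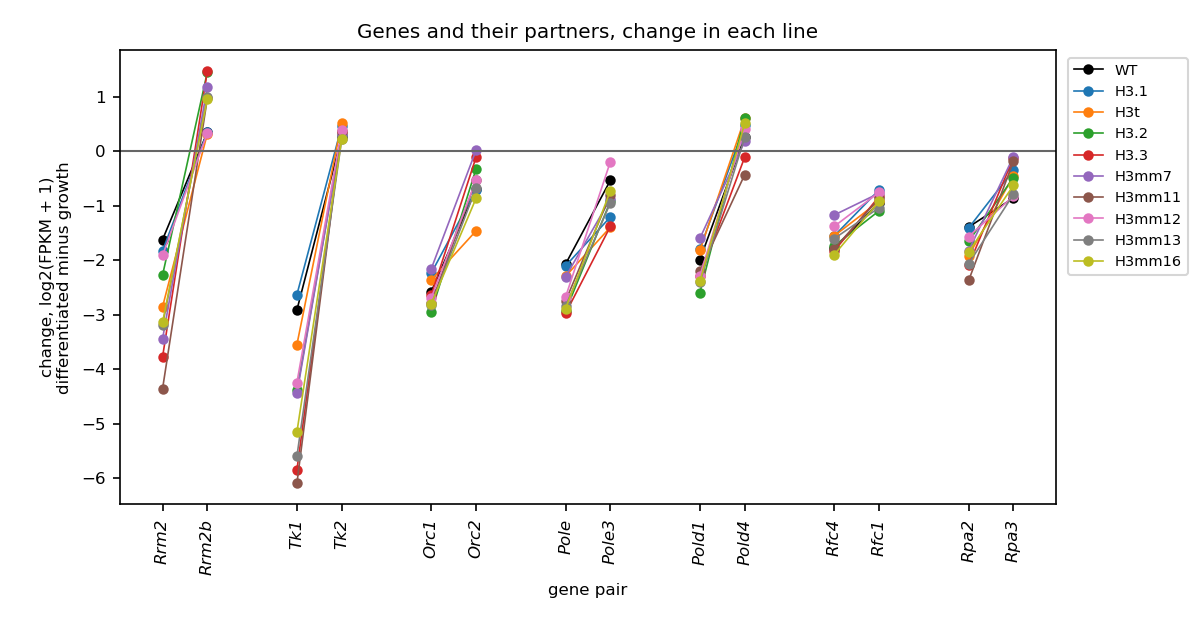
Each line segment joins the change in log2(FPKM + 1) of a gene and of its partner in 1 of 10 cell lines, for 7 pairs. Every segment slopes upward from the member to the partner, most steeply for Tk1 and Tk2, and partners such as Rrm2b and Tk2 lie above 0.

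Of 69 other genes of replication and nucleotide metabolism, 36 were called lower, 0 were called higher and 33 were not called, with a median change of -1.09. A further 18 were lower and 7 were higher at an adjusted p below 0.05 with a change smaller than 1. The largest falls were those of Top2a, which untangles replicated DNA (-4.33, limma adjusted p = 2.64e-09), Gmnn, which blocks a second licensing (-3.36), and Chaf1b, which deposits histones behind the fork (-3.22). Among 39 further subunits and factors of the machinery, 22 were called lower with a median of -1.56. Among 30 further enzymes of nucleotide synthesis and turnover, 14 were called lower with a median of -0.96. A list of 24 mitosis genes was called lower throughout, with a median of -3.85.

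The GFP-H3 lines resembled each other in growth and spread apart after differentiation. Over 9 lines, the SD of log2(FPKM + 1) of the members had a median of 0.17 in growth and 0.47 after differentiation. It was larger after differentiation in 33 of 34 genes, against 79.1% of genes tested, with Pcna as the exception (0.24 and 0.22). For all genes tested the medians were 0.21 and 0.31. The highest line was 1.20 times the lowest for Tk1 in growth and 26.5 times after differentiation, and for Mcm5 these ratios were 1.37 and 31.6. The lowest differentiated values were 0.818 FPKM for Tk1 and 0.303 FPKM for Mcm5, both in H3mm11, and such low values make a ratio uncertain. Rpa1 was narrow in both states (1.17 and 1.65).

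In the differentiated state the H3.1 line had the highest level of 16 members, H3mm7 of 9, WT of 5, H3t of 3 and H3mm11 of 1, which was Dut. The H3mm13 line had the lowest level of 9 members and H3mm11 of 7. The median share of the growth level that was left was 23.6% in H3.1, 19.8% in H3mm7, 16.4% in WT and 15.7% in H3t. It was 13.1% in H3mm12, 11.3% in H3.3, 11.2% in H3mm11, 10.9% in H3.2, 10.5% in H3mm13 and 10.1% in H3mm16. With 1 library for each line and state, neighbours in this order cannot be separated by a test. The roles differed in how far apart lines lay. For helicase activation genes the median share left was 19.4% in H3.1 and 4.25% in H3mm13, while for the clamp and its loader it was 32.8% and 20.8%. The summed level of the 7 muscle markers was lowest in H3.1 (4280 FPKM), followed by H3mm11 (4430 FPKM) and H3t (4551 FPKM), and highest in H3mm12 (20239 FPKM). It was 6140 FPKM in H3mm7, 6357 in H3.3, 10853 in H3.2, 14889 in H3mm13, 15122 in H3mm16 and 16767 in WT. By median share left, H3.1 kept the most of the replication genes, and H3mm11 had the lowest Mcm5, Tk1 and Cdc6. The part of this marker level in the results was not tested.

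The 6 H3.3-type lines were compared with the 3 H3.1/H3.2-type lines, leaving out WT. In growth no member was called by limma, against 0.0456% of genes called lower and 0.164% called higher. No member had an unadjusted p below 0.05 either, against 9.39% of genes tested. This fit shares the spread of a gene over both states, so its SE was the same in growth and after differentiation. Since 33 of 34 members spread more after differentiation, small differences in growth can be missed by it. The groups did not overlap for Rfc3 and Rfc5, which were lower in every H3.3-type line, against 4.01% of genes tested. No member was higher in every H3.3-type line, against 5.93%. In growth the H3.3-type lines also had higher sums of the muscle markers, as given above. Myog was called higher in them (2.56, limma adjusted p = 0.0245), and no other muscle marker was called. The part of this difference in the results was not tested. After differentiation Tk1 was called lower, against 0.529% of genes, and no member was called higher, against 0.219%. Tk1 was at 1.06, 5.41, 0.818, 5.28, 1.75 and 2.56 FPKM in the H3.3-type lines and at 21.7, 5.36 and 9.03 FPKM in the H3.1/H3.2-type lines. The H3.2 line lay just below H3mm7, so the groups overlapped by that pair. The difference was -1.75 (SE 0.38, limma adjusted p = 0.0293). The SD of Tk1 over the 9 lines was 0.10 in growth and 1.17 after differentiation. The shared spread thus understates that of the differentiated lines, and a fit to these alone was not run. Without the H3.1 line the difference was -1.24 (limma adjusted p = 0.153). Without the H3t line it was -1.83 (limma adjusted p = 0.125), so the call rests on single lines. It was also lost without H3.3, H3mm11, H3mm13 or H3mm16 (limma adjusted p of 0.0581 to 0.0693).

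Tyms had an adjusted p of 0.0494 in the limma fit of the same comparison, with a difference of -0.64, which is under the size limit. Its spread was likewise shared with growth, where it was smaller (SD of 0.16 against 0.43). Mcm5 was at 0.303 to 4.87 FPKM in the H3.3-type lines and at 9.55, 1.68 and 7.06 FPKM in H3.1, H3.2 and H3t, a difference of -1.44 (SE 0.42, limma adjusted p = 0.0710). Without the H3.2 line, Mcm4, Mcm5, Mcm6 and Tk1 were called lower in the H3.3-type lines. Mcm5 was also called without H3mm7 and Rrm2 without H3mm12, each together with Tk1. Orc6 was the only member for which every H3.3-type line was below every H3.1/H3.2-type line after differentiation (8.27 to 11.1 FPKM against 12.2 to 15.1 FPKM), against 2.94% of genes tested, and none lay above (3.13%). Of the 34 differences, 32 were negative, with a median of -0.47 against 0.01 for all genes tested. An unadjusted p below 0.05 was found for 18, as for 20.1% of all genes, with the spread shared over both states. The shift was not particular to the members. Differences of the listed mitosis genes ran from -1.62 to -0.34. Those of the other pathway genes ran from -1.73 in Top2a to 0.63.

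Whether the change with differentiation itself differed by type was tested as an interaction. In the fit with a mean for each type and state, which does not pair the libraries of a line, no member and no other gene was called by limma (0 of 10954 genes, which is 0%), while 2 members (Tk1 and Mcm5) and 1002 of all genes had an unadjusted p below 0.05. For Tk1 the interaction was -1.71 (SE 0.54, limma adjusted p = 0.424). With the line as a block, which pairs them, limma called 3 genes and no member. In that fit 4 members (Mcm4, Mcm5, Prim2 and Tk1) and 16.2% of all genes had an unadjusted p below 0.05, and Tk1 had an SE of 0.48 and a limma adjusted p of 0.166.

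WT was set beside the 9 GFP-H3 lines as a description, since it has 1 library in each state. Its FPKM also had a lower sum and a higher median, as given above. In growth WT was below all 9 lines for 10 members, against 22.5% of genes tested, and above all 9 for 5, against 25.9%. The 10 were Mcm2, Mcm7, Cdc6, Cdt1, Gins2, Pcna, Rfc3, Rfc4, Rfc5 and Tk1. The 5 were Mcm5, Orc1, Cdc45, Gins1 and Rpa1. The largest gaps were for Tk1 (55.9 FPKM against at least 116 FPKM), Pcna (124 FPKM against at least 255 FPKM) and Mcm7 (46.4 FPKM against at least 66.7 FPKM). After differentiation WT was below all 9 for Mcm7, Pcna and Rfc4, against 17.5%, and above all 9 for Prim1, Rpa1, Rpa2, Rrm1 and Rrm2, against 22.5%.

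The members with and without a match to either E2F motif in the window overlapped in their changes. The 10 with a match had a median change of -2.68 (from -4.39 in Mcm5 to -1.89 in Rfc3). The 19 with a window but no match had a median of -2.37 (from -4.49 in Tk1 to -1.62 in Rfc4). Other forms of the E2F sequence and bases outside the window were not searched, so genes without a match may still have a site. Of the sequences shown above, those of Mcm5 and Mcm7 both hold the letters TTTCGCGC. They begin 153 bases before the start in Mcm5 and 16 bases after it in Mcm7. These genes had the largest and the smallest fall of the MCM subunits. Whether the motif bears on the size of a fall was not tested.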

How the data were processed

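mRNA-Seq libraries (oligo dT) of 10 C2C12 lines in 2 states were used. The authors aligned reads from GFP-H3 cells with TopHat (version 2.0.8; mm9). They deposited FPKM from cuffdiff (Cufflinks 2.0.1, defaults). For WT reads no mapper is named in the methods, but the submitters' processing notes list the same tools. Strand use in counting is not given in the sources used here. As FPKM hold no read numbers, depth is unknown and counting error was not estimated. The deposited 3′-seq tables list histone genes only and were not used.

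Values were analysed as log2(FPKM + 1) with limma 3.58.1 (trend and robust settings, R 4.3.3) over 10954 genes with a mean of at least 1 FPKM. The state fit used 20 libraries, and the fit by H3 type used the 18 GFP-H3 libraries with a mean for each type and state. P-values were adjusted by Benjamini-Hochberg over all genes tested. Lines served as replicates. Within a line nothing was repeated, so p-values measure the spread between lines. The fit by H3 type shares this spread over both states, so its p-values do not measure the spread within a single state. Libraries of a line pair across states: deviations from the state means correlated best with the same line in 10 of 10 lines (r of 0.273 to 0.877). Pairs of genes were tested by exact sign-flip over lines. Members, lists, pairs and motifs were chosen with earlier results of these data known. All members, the pair partners, the 3 largest changes in each direction among called other pathway genes (none was called higher) and all listed cell type markers were named. Fits were tested on simulated data. Alternatives covered the pseudocount, the filter, normalization, limma settings, a line block and leaving out each line. Loci are from GENCODE on mm9 and promoter windows from RefSeq on GRCm38.p6. Python 3.11.15, numpy 2.4.6, pandas 2.3.3 and matplotlib 3.10.9 were used.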

Additional observations from a re-analysis of the deposited data

Results flagged for a closer look

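In each group of 10 lines, the highest or lowest value was compared with its nearest neighbour by Dixon's gap over range, for 109 groups. Chance alone gives such a gap in about 1 in 20 groups. Values are log2(FPKM + 1). In growth, WT stood below the other lines for Mcm7 (5.57), Pcna (6.97), Rfc5 (4.47) and Tk1 (5.83), and after differentiation for Pcna (5.06). The H3mm7 line stood above the others for Fen1 in growth (5.93). The change of Prim2 was smallest in size in the H3.1 line (-1.49). Of these 7 values, 5 belong to WT. Its libraries had a lower summed FPKM, and a higher median FPKM over genes above 0, than all other libraries. The part of these library differences in the 5 values was not tested.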

How the results depend on the processing

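All 34 members kept their direction under every alternative run for the state comparison, with changes between -5.05 and -0.76. With a pseudocount of 10 FPKM, Orc1, Pola1 and Pole fell under the size limit (-0.76, -0.92 and -0.81), and 15 instead of 36 other pathway genes were called lower. Fitting the line as a block (replicate block) left 34 members called lower and 37 other pathway genes, and changed no member's call. For the interaction by type, the block gave 3 genes called against 0 without it, and 0 members in both. After differentiation, the count of members called by H3 type was 1, became 0 with a pseudocount of 10 FPKM and 0 without a filter, and lay between 0 and 4 when 1 line was left out. The count was 4 without H3.2, 2 without H3mm7 and 2 without H3mm12, and the cause was not tested. The difference between Pole and Pole3 with a pseudocount of 10 FPKM was -0.024 (adjusted p = 0.807 by the exact test). The other pairs stayed past the threshold under all alternatives run. Scaling moved the median change of all genes by less than 0.1. Limits are the single library of each line and state, the unknown depth, and values under 1 FPKM, for which ratios and percentages are least certain.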
